A study of Mus musculus with 235 samples.

Results

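Genes that carry or check the insulin signal were followed in mouse brain after an acute glucocorticoid: Ddit4, Foxo1, Foxo3, Irs1, Irs2, Insr, Igf1r, Pik3r1, Deptor and Rheb. They were chosen as an insulin, FoxO and mTOR set, taken by symbol from the deposited count table, and 10 of 10 were found among its 27998 genes. Libraries came from 30 male C57Bl/6 mice aged 3 months, of which 15 were injected intraperitoneally with dexamethasone, a synthetic glucocorticoid, at 10 mg/kg and 15 with saline (the vehicle group, labelled CNTRL). Brains were taken after 4 h, and small cylinders of tissue (punches) were cut from 8 regions that the labels call vDG, vCA1, dDG, dCA1, PVN, PFC, CER and AMY. Each of the 16 groups held 13 to 15 libraries, 1 per animal and region, 235 in all (118 vehicle and 117 dexamethasone). The strain, sex, age and time of sampling were shared by both arms, and no transgene is named in the labels.

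Insulin and insulin-like growth factor bind the receptors encoded by Insr and Igf1r, which pass the signal through the adaptors IRS1 and IRS2 to phosphoinositide 3-kinase (PI3K), of which Pik3r1 encodes a regulatory subunit. The kinase Akt, downstream of PI3K, holds the transcription factors FOXO1 and FOXO3 out of the nucleus and relieves the brake on RHEB, the small GTPase that switches on mTOR complex 1, a kinase that promotes protein synthesis and cell growth. DDIT4 (also called REDD1) and DEPTOR hold mTOR back, and Ddit4 is a textbook target of the glucocorticoid receptor.

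Ddit4 and Irs2 rose after dexamethasone in all 8 regions, Ddit4 by 1.95-fold to 3.28-fold and Irs2 by 1.57-fold to 2.01-fold. Foxo3 rose in 5 regions, Foxo1 and Igf1r in 2 each, and Irs1 fell in 2. Insr, Pik3r1, Deptor and Rheb passed the threshold in 0 regions. In bulk tissue such as these punches, fewer cells of a type and less RNA per cell cannot be told apart. A gene was counted as changed where edgeR's quasi-likelihood test gave a Benjamini-Hochberg adjusted p under 0.05 over all genes tested in that region, and the 10 members passed the filter on low counts in each region. The most members changed in CER, 5 of 10, where 6.18% of all tested genes changed. In each of PFC (6.14%), PVN (5.63%) and vCA1 (5.45%) 4 of 10 members changed, in vDG (3.93%) and dDG (3.7%) 3 of 10, and in AMY (5.62%) and dCA1 (4.68%) 2 of 10, the percentage being that of all tested genes. The median log2 fold change of the 10 members lay between 0.04 in dDG and 0.20 in vCA1, and that of all tested genes between -0.02 and 0.00. Among the 7924 genes tested in every region, 0.883% rose in all 8 and 0.391% fell in all 8, and Ddit4 and Irs2 belong to the former.

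The start regions of Ddit4 and Irs2, which changed in every region, and of Irs1, the other adaptor, which fell where it changed, are shown so that the elements named below can be seen in place. Each line holds the 250 bases before the start site that RefSeq gives on GRCm38.p6, written 5′ to 3′ on the gene's own strand, with matches to any of 7 short motifs in capitals. All 3 lie on the minus strand, Ddit4 at chr10:59951771-59952020, Irs2 at chr8:11008930-11009179 and Irs1 at chr1:82291440-82291689.
Ddit4: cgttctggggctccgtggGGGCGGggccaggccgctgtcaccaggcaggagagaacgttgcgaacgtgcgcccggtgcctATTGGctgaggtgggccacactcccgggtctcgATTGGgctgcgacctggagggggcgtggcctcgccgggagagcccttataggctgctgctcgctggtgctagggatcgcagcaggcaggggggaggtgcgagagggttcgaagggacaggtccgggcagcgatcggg
Irs2: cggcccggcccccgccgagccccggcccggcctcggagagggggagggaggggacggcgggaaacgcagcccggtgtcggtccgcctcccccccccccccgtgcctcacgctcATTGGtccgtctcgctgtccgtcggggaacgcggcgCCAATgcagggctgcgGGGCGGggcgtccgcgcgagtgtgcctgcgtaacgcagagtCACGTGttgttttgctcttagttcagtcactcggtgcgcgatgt
Irs1: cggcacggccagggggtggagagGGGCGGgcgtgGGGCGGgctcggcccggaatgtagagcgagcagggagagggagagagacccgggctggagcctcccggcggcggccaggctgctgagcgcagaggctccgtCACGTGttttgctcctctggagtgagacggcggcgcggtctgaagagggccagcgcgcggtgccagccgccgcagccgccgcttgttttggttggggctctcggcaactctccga
On mm10 the count table places Ddit4 at chr10:59949675-59951770, Irs2 at chr8:10984681-11008458 and Irs1 at chr1:82233101-82291416. The capitals mark a GC box (GGGCGG), an E-box (CACGTG) or a CCAAT box (CCAAT, which reads ATTGG on the other strand). RefSeq start regions were found for 8 of the 10 members, 9 regions in all because Pik3r1 has a pair of them, and both strands were searched. The GC box was present in 8 of the 9, the exception being a region of Pik3r1, and in 32.7% of all 32851 start regions of that length. The E-box stood before Irs1, Irs2 and Rheb (6.02% of all), the CCAAT box before Ddit4, Foxo1, Irs2 and Pik3r1 (33.8%), and the TATA box (TATAAA) in the region of Pik3r1 that held neither the GC box nor the CCAAT box (12.4%). Neither the full glucocorticoid response element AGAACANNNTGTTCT (0.00913% of all) nor its arm AGAACA (16.1%, part of the full element) nor the FoxO site GTAAACA (3.17%) was spelled out in any of the 9. A match is only a spelling, and its absence says nothing of sites farther away.

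Levels below are counts per 1000000 counts (CPM) of a library, scaled over all 235 libraries. The assay reads the 3' end of messages, so a level is compared between samples of 1 gene and not between genes. The shallowest library held 268538 counts, the deepest 1451422 and the median one 742957. Mean RNA integrity (RIN) was 7.75 in the vehicle and 7.81 in the dexamethasone group of PFC, and 5.69 to 6.69 in the groups of the other regions. Tissue markers went against some labels. Gabra6, a defining gene of cerebellar granule cells, was at 0 counts in all 15 CER vehicle libraries, which allows up to 3.07 CPM in the deepest and 11.2 CPM in the shallowest. A list of 7 cerebellar markers summed to a median of 69.5 CPM there against 163 to 295 CPM in the other regions' vehicle groups. Much of that sum was Calb1, with a mean of 43.2 CPM in CER and 153 to 242 CPM elsewhere. En2 (11.4 CPM against 0.361 to 8.07 CPM) and Barhl1 (3.70 CPM against 0 to 2.20 CPM) instead had their highest vehicle means in CER. Car8, Cbln1 and Pcp2 were neither highest nor lowest there. Gabra6 reached 10 CPM or more in 7 vDG libraries, 1 vCA1, 1 CER and 1 PFC library, and up to 337 CPM. Prox1, a gene of dentate granule cells, averaged 514 CPM in dCA1 vehicle libraries and 455 CPM in dDG, against 104 CPM in vCA1 and 264 CPM in vDG. Oxt, the oxytocin gene of the paraventricular hypothalamus, had its highest vehicle mean in PVN, 272 CPM against at most 33.9 CPM elsewhere. It ranged from 4.90 to 1457 CPM among PVN vehicle libraries. The region names therefore stand for the labels only. Without the 10 libraries at 10 CPM of Gabra6 or more, the number of changed members was 5 in CER, 4 in PFC and 4 in vCA1 as with them, and 2 in place of 3 in vDG.

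The receptors moved little. Insr, the insulin receptor, gave log2 fold changes from -0.12 to 0.12 over the 8 regions, passed in 0 by edgeR's quasi-likelihood test, in 0 at an unadjusted p under 0.05 and in 0 by DESeq2. In PFC, which had its lowest adjusted p of 0.79, Insr ran from 25.3 to 66.7 CPM (median 38.3) under vehicle and from 26.5 to 46.4 CPM (median 35.8) under dexamethasone. No dexamethasone library lay outside the vehicle range, at a log2 fold change of -0.12 ± 0.13 (SE).

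Igf1r, the receptor of insulin-like growth factor 1, rose in CER and PFC. In PFC the vehicle libraries lay between 182 and 239.8 CPM (median 214) and the dexamethasone libraries between 203 and 313 CPM (median 255). Of 14 dexamethasone libraries 13 stood above the vehicle median and 11 above the vehicle maximum. The log2 fold change was 0.30 ± 0.07 (SE, adjusted p = 0.00188 by edgeR). In CER, levels went from 153 to 238 CPM (median 201) to 212 to 279 CPM (median 231), which is 0.24 ± 0.07 on the log2 scale (adjusted p = 0.0259). All 15 dexamethasone libraries of CER exceeded the vehicle median. In the other 6 regions the change of Igf1r was between -0.03 (dCA1) and 0.19 (vDG). It passed in vDG with date and plate as factors (log2 0.21, adjusted p = 0.0455) and in vCA1 with the libraries of the authors' variance-stabilised tables (log2 0.23, adjusted p = 0.0481). It had an unadjusted p under 0.05 in 6 of 8 regions in all, and a test of whether its change differed among regions gave an adjusted p of 0.728.

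The adaptors moved in opposite directions where both passed, in CER and dDG, and their responses were not tested against each other. Irs2, the adaptor best known for insulin action in liver and hypothalamus, rose everywhere. In AMY the 15 vehicle libraries held 81.1 to 160.1 CPM of Irs2 (median 108) and the 15 dexamethasone libraries 164 to 248 CPM (median 224). No library of one arm reached the other arm's range. The log2 fold change was 0.97 ± 0.08 (SE, adjusted p = 2.09e-11 by edgeR's quasi-likelihood test). In vCA1, Irs2 ran from 93.6 to 165 CPM (median 112) under vehicle and from 175 to 297 CPM (median 215) under dexamethasone (log2 0.89 ± 0.08, adjusted p = 1.35e-10). In vDG it ran from 77.1 to 149 CPM (median 127) and from 161 to 256 CPM (median 205; log2 0.74 ± 0.08, adjusted p = 4.88e-08). These arms were fully apart as well, so that Irs2 was separated in 3 regions, where 0.348% (AMY), 0.285% (vCA1) and 0.193% (vDG) of tested genes had every dexamethasone library above every vehicle library. In the remaining 5 regions, where Irs2 was not fully apart, that share was 0.564% (CER), 0.326% (PFC), 0.367% (PVN), 0.195% (dCA1) and 0.0936% (dDG).

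Some Irs2 libraries overlapped in those 5 regions. In PFC the vehicle libraries ran from 63.6 to 124 CPM (median 96.0) and the dexamethasone libraries from 95.7 to 221 CPM (median 184), with the largest change, 1.00 ± 0.10 on the log2 scale (adjusted p = 6.98e-11). In CER the ranges were 84.5 to 170.0 CPM (median 137) and 167 to 271 CPM (median 235; log2 0.82 ± 0.09, adjusted p = 1.72e-09). In PFC a single dexamethasone library lay among the vehicle values, and in CER the ranges touched at their ends. In dDG, vehicle libraries of Irs2 spanned 78.8 to 224 CPM (median 129.9) and dexamethasone libraries 169.7 to 299 CPM (median 234; log2 0.74 ± 0.10, adjusted p = 4.60e-06). In dCA1 they spanned 99.1 to 183 CPM (median 130.0) and 165 to 289.9 CPM (median 201; log2 0.66 ± 0.09, adjusted p = 3.76e-06). PVN had the smallest change, from 95.6 to 207 CPM (median 131) to 162 to 289 CPM (median 206; log2 0.65 ± 0.09, adjusted p = 1.10e-06). All dexamethasone libraries of these 3 regions were above the vehicle median, and 8 of 15 in dDG, 11 of 13 in dCA1 and 7 of 15 in PVN were above the vehicle maximum. Over all regions, 98 of 117 dexamethasone libraries had more Irs2 than the highest vehicle library of their region. Irs2 was higher under dexamethasone in 32 of 32 combinations of region and sequencing plate, and in 32 of 32 of region and date of punching. Whether the change differed among regions was tested in 1 fit over all libraries with the animal as a block, and Irs2 did not pass (adjusted p = 0.604).

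**Figure D1:**
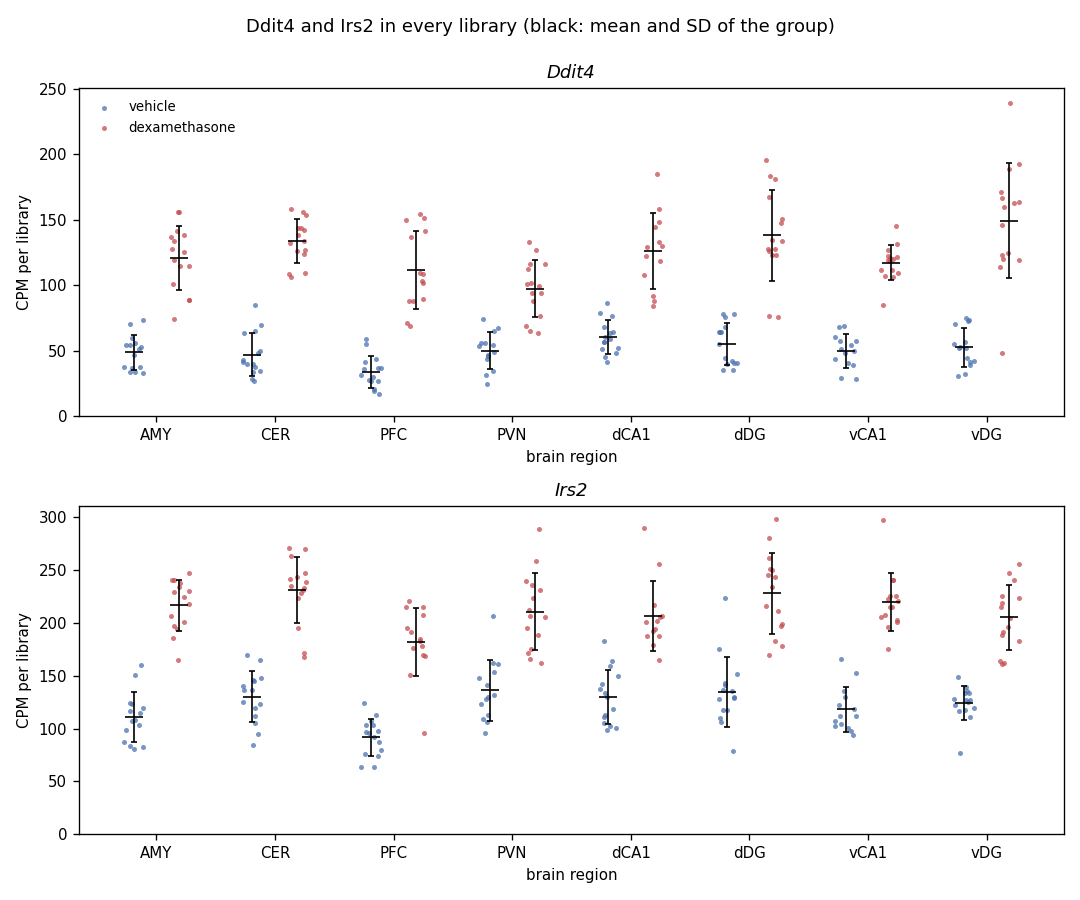
Level of Ddit4 (top) and Irs2 (bottom) in CPM (y axis) in every library, by region (x axis). Blue points are vehicle and red points dexamethasone libraries, and black marks give each group's mean and SD; the dexamethasone groups stand above the vehicle groups in all 8 regions, with vDG holding the single low Ddit4 library at 48.6 CPM.

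Irs1, the adaptor best known in muscle and fat, had a log2 fold change below 0 in 8 of 8 regions, from -0.51 to -0.15. In dDG it ran from 23.4 to 55.0 CPM (median 41.5) under vehicle and from 16.9 to 40.1 CPM (median 27.0) under dexamethasone. Irs1 fell by 0.51 ± 0.14 on the log2 scale there (SE, adjusted p = 0.0255 by edgeR). In CER it ran from 20.8 to 42.9 CPM (median 33.8) and from 15.7 to 38.3 CPM (median 21.8), and fell by 0.51 ± 0.13 (adjusted p = 0.0109). The arms overlapped in both, and 15 of 15 dexamethasone libraries in dDG and 14 of 15 in CER lay below the vehicle median. Of the other 6 regions, PVN came next with 17.5 to 42.7 CPM (median 34.7) against 14.6 to 33.0 CPM (median 26.5), or -0.33 ± 0.13 on the log2 scale, which did not pass (adjusted p = 0.143). The smallest was vCA1, at -0.15 ± 0.16. Irs1 had an unadjusted p under 0.05 in 6 of 8 regions. It was higher under dexamethasone in 3 of 32 combinations of region and plate and in 7 of 32 of region and date. Of its exon bases, 30.9% overlap Gm9747 on the other strand, which held 2 counts in all libraries together. The difference in response among regions did not pass (adjusted p = 1.00).

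Pik3r1, which encodes the main regulatory subunits of PI3K, passed in 0 regions. Its log2 fold changes ran from -0.22 in CER to 0.18 in vCA1. In CER, Pik3r1 lay between 161 and 238 CPM (median 196) under vehicle and between 130.4 and 219 CPM (median 169) under dexamethasone. The arms overlapped, with 11 of 15 dexamethasone libraries below the vehicle median, and the change of -0.22 ± 0.08 on the log2 scale had an adjusted p of 0.0962 by edgeR. DESeq2 gave an adjusted p of 0.0422 for this region, the 1 of 8 in which that tool passed Pik3r1, and edgeR with the replicate number as a block gave 0.0441. In PFC the change had the opposite sign, from 172 to 255 CPM (median 218) to 211 to 274 CPM (median 244; log2 0.17 ± 0.07, adjusted p = 0.159). An unadjusted p under 0.05 was reached in 3 regions. The test of a difference among regions gave an adjusted p of 0.490.

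Of the FoxO factors, which switch on genes of catabolism and stress resistance, Foxo3 had a log2 fold change above 0 in 8 of 8 regions and rose in 5. In CER, Foxo3 ran from 34.7 to 86.5 CPM (median 66.7) under vehicle and from 64.3 to 97.9 CPM (median 84.8) under dexamethasone. The log2 fold change was 0.39 ± 0.08 (SE, adjusted p = 0.00124 by edgeR), and 14 of 15 dexamethasone libraries were above the vehicle median. In PFC it ran from 67.4 to 111 CPM (median 91.2) and from 90.2 to 139 CPM (median 111; log2 0.33 ± 0.08, adjusted p = 0.00525). In vDG the ranges were 59.3 to 119 CPM (median 89.8) and 86.4 to 179.5 CPM (median 112; log2 0.37 ± 0.11, adjusted p = 0.0395), and in vCA1 they were 54.0 to 99.0 CPM (median 74.4) and 71.1 to 116 CPM (median 95.4; log2 0.31 ± 0.09, adjusted p = 0.033). The arms overlapped in each, with 13 of 14 (PFC), 13 of 15 (vDG) and 14 of 15 (vCA1) dexamethasone libraries above the vehicle median. The rise in PVN was the smallest that passed, from 53.6 to 87.9 CPM (median 70.5) to 65.3 to 98.4 CPM (median 81.4; log2 0.26 ± 0.08, adjusted p = 0.0467). AMY, dCA1 and dDG gave 0.11 ± 0.09, 0.11 ± 0.10 and 0.22 ± 0.09 and did not pass. Foxo3 was higher under dexamethasone in 31 of 32 combinations of region and plate and in 32 of 32 of region and date. Of the alternative settings, Foxo3 passed in 1 of 7 in PVN, 6 of 10 in vCA1 and 8 of 10 in vDG: with the replicate number as a block the adjusted p was 0.0605 in PVN (log2 0.26) and 0.0707 in vCA1 (log2 0.32), and it rose to 0.0524 in PVN with another scaling (log2 0.26), to 0.110 in vCA1 (log2 0.26) without 3 libraries that the authors' variance-stabilised table leaves out, and to 0.0932 in vDG (log2 0.33) without the 7 libraries with Gabra6.

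Foxo1 rose in vCA1 and PVN. In vCA1 its level went from 37.0 to 63.1 CPM (median 48.6) under vehicle to 38.8 to 102 CPM (median 69.1) under dexamethasone, and in PVN from 28.4 to 62.2 CPM (median 45.4) to 47.0 to 74.5 CPM (median 59.9). In vCA1, 9 of 15 dexamethasone libraries were above the vehicle maximum, and in PVN 5 of 15 were, with all 15 above the vehicle median. The log2 fold changes were 0.52 ± 0.11 (SE, adjusted p = 0.00210 by edgeR) in vCA1 and 0.35 ± 0.10 (adjusted p = 0.0270) in PVN. The 5 paraventricular markers, of which 0 passed in PVN (Avp log2 1.39, adjusted p = 0.212, and Oxt 1.33, adjusted p = 0.260), summed there to a median of 246 CPM (33.7 to 2110) under vehicle and 881 CPM (13.1 to 2867) under dexamethasone. Their part in the PVN values of Foxo1, Foxo3 and Ddit4 was not tested. In the other regions Foxo1 gave values from -0.13 in dDG to 0.29 in CER and did not pass, and the test of a difference among regions gave an adjusted p of 0.0843. Of 7 dentate markers, Lct, Tdo2 and Plk5 did not pass the filter on low counts in vCA1 and were not tested. Their medians were 3.31, 5.49 and 8.63 CPM under vehicle and 4.18, 7.97 and 12.7 CPM under dexamethasone, and Plk5 reached 107 CPM under vehicle. Npnt and Dsp, with medians of 9.28 and 7.30 CPM under vehicle and 28.7 and 24.6 CPM under dexamethasone, met the filter mainly through the dexamethasone libraries. Prox1 gave a log2 fold change of 0.80 ± 0.25 (adjusted p = 0.0522) and Stxbp6 one of 0.42 ± 0.16 (adjusted p = 0.151). The 7 summed to between 120.3 and 340.0 CPM (median 208) in vehicle and between 133 and 864 CPM (median 320.5) in dexamethasone libraries of vCA1. With the level of 6 of these markers (all but Prox1) as a covariate, the log2 fold change of Foxo1 in vCA1 was 0.30 with an adjusted p of 0.265. That level includes Npnt and Dsp, which were themselves higher under dexamethasone, so the fit cannot separate the markers from the drug.

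**Figure D2:**
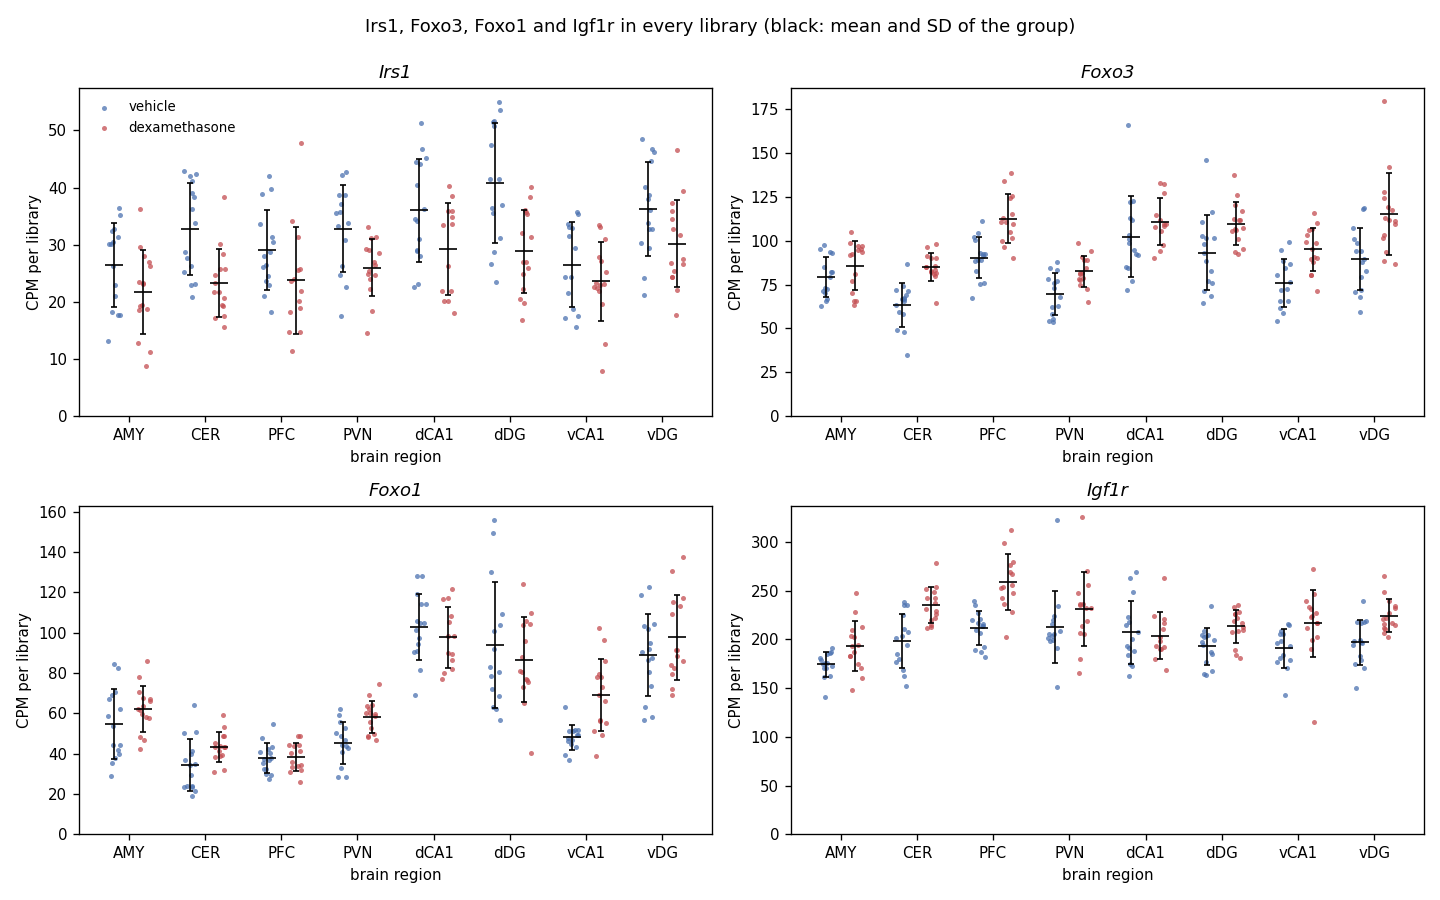
Level of Irs1, Foxo3, Foxo1 and Igf1r in CPM (y axis) in every library, by region (x axis), vehicle in blue and dexamethasone in red, with each group's mean and SD in black. The arms overlap in every panel; Foxo1 in vCA1 shows the vehicle group narrow at 48.1 ± 6.25 CPM and the dexamethasone group wide at 69.1 ± 18.1 CPM.

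Among the members that set mTOR activity (Ddit4, Deptor and Rheb), Ddit4 had the largest response. In PFC it ran from 17.0 to 59.1 CPM (median 31.4) in 15 vehicle libraries and from 69.0 to 154 CPM (median 106) in 14 dexamethasone libraries. In CER it ran from 26.5 to 84.8 CPM (median 41.7) and from 107 to 158 CPM (median 134), in AMY from 33.2 to 73.8 CPM (median 51.6) and from 74.3 to 156 CPM (median 125). In vCA1 it ran from 28.1 to 69.1 CPM (median 50.4) and from 85.3 to 145 CPM (median 119). In these 4 regions no dexamethasone library came down to the vehicle range, a separation shared by 0.326% (PFC), 0.564% (CER), 0.348% (AMY) and 0.285% (vCA1) of tested genes. The log2 fold changes of Ddit4, with SE and edgeR's adjusted p, were 1.72 ± 0.15 (1.61e-12) in PFC, 1.49 ± 0.12 (6.97e-13) in CER, 1.30 ± 0.12 (1.33e-10) in AMY and 1.24 ± 0.10 (9.41e-12) in vCA1.

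Ranges met in the remaining 4 regions. In vDG, Ddit4 ran from 30.7 to 75.1 CPM (median 51.8) under vehicle and from 48.6 to 239 CPM (median 159.8) under dexamethasone, and 14 of the 15 dexamethasone libraries were above the vehicle maximum. In dDG it ran from 35.3 to 78.0 CPM (median 55.4) and from 75.7 to 195 CPM (median 134), in dCA1 from 41.3 to 86.2 CPM (median 58.9) and from 84.2 to 185 CPM (median 129). In PVN it ran from 24.3 to 74.3 CPM (median 51.0) and from 63.4 to 133 CPM (median 99.1). Above the vehicle maximum stood 13 of 15 dexamethasone libraries in dDG, 12 of 13 in dCA1 and 12 of 15 in PVN. The log2 fold changes were 1.50 ± 0.15 (adjusted p = 4.95e-09) in vDG, 1.28 ± 0.13 (1.55e-08) in dDG, 1.04 ± 0.11 (1.63e-08) in dCA1 and 0.96 ± 0.12 (8.61e-08) in PVN. Over all regions, 110 of 117 dexamethasone libraries exceeded the highest vehicle library of their region, and Ddit4 was higher in 32 of 32 combinations of region and plate and 32 of 32 of region and date.

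The size of the Ddit4 response differed among regions in a fit over all libraries with the animal as a block (F = 4.15 over 7 terms, adjusted p = 0.0257), as it did for 1.27% of the 11053 genes tested. Of 28 pairs of regions, 1 passed after adjustment over all genes, with the change smaller in PVN than in PFC by 0.74 ± 0.17 on the log2 scale (adjusted p = 0.0222; 0.335% of genes passed for this pair). PFC against dCA1 came next, at -0.68 ± 0.17 (adjusted p = 0.0607). PFC was also the region with the least Ddit4 under vehicle, at 33.9 ± 12.2 CPM (SD, n = 15), while dexamethasone means ran from 97.2 ± 21.8 CPM (SD, n = 15) in PVN to 149 ± 44.1 CPM (SD, n = 15) in vDG. The difference among regions was lost without the animal block (adjusted p = 0.153), with only the libraries in the authors' variance-stabilised tables (0.0569) and without the libraries with Gabra6 (0.0720). The responses of the other 9 members did not pass this test.

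Ddit4 levels were also compared between animals, with no test. Each library's log2 level was taken relative to the mean of its region and arm and averaged over the regions of an animal. These averages ran from -0.48 to 0.43 among the 15 vehicle animals (SD 0.304) and from -0.14 to 0.15 among the 15 dexamethasone animals (SD 0.0935). The spread between libraries of 1 animal alone would give such averages an SD of 0.101 under vehicle and 0.126 under dexamethasone, so that only the vehicle SD lay above it. In the mouse numbered vehicle replicate 5 all 8 libraries were below their region's mean, and in that numbered vehicle replicate 10 all 8 were above it. For Irs2 the SD between animals was 0.103 under vehicle and 0.0849 under dexamethasone, close to the 0.0976 and 0.0787 that the spread between libraries would give. Date of punching moved with the vehicle values in part. The 3 vehicle animals of date 5 had Ddit4 averages from 0.19 to 0.39 and the single one of date 2 had -0.48, while the 4 of date 4 spanned -0.36 to 0.43. What set these levels was not tested.

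Deptor, an inhibitor of both mTOR complexes, passed in 0 regions by edgeR and 0 by DESeq2, with log2 fold changes from -0.29 to 0.26. Its lowest adjusted p was in PVN, where it ran from 46.4 to 92.3 CPM (median 66.5) under vehicle and from 36.6 to 71.7 CPM (median 60.0) under dexamethasone (log2 -0.29 ± 0.11, adjusted p = 0.104), the 1 region with an unadjusted p under 0.05. With the replicate number as a block, which pairs libraries of 1 plate, Deptor passed in PVN (log2 -0.32, adjusted p = 0.0322). The arms overlapped, with 11 of 15 dexamethasone libraries below the vehicle median. Deptor was the most scattered member in CER, from 20.1 to 201 CPM among vehicle libraries. Rheb, the activator of mTOR complex 1, gave log2 fold changes from -0.08 in vDG to 0.14 in dDG and passed in 0 regions by edgeR, 0 at an unadjusted p under 0.05 and 0 by DESeq2. In dDG, with its lowest adjusted p of 0.622, Rheb ran from 116 to 194 CPM (median 169) under vehicle and from 107 to 218 CPM (median 185) under dexamethasone, the latter range enclosing the former.

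**Figure D3:**
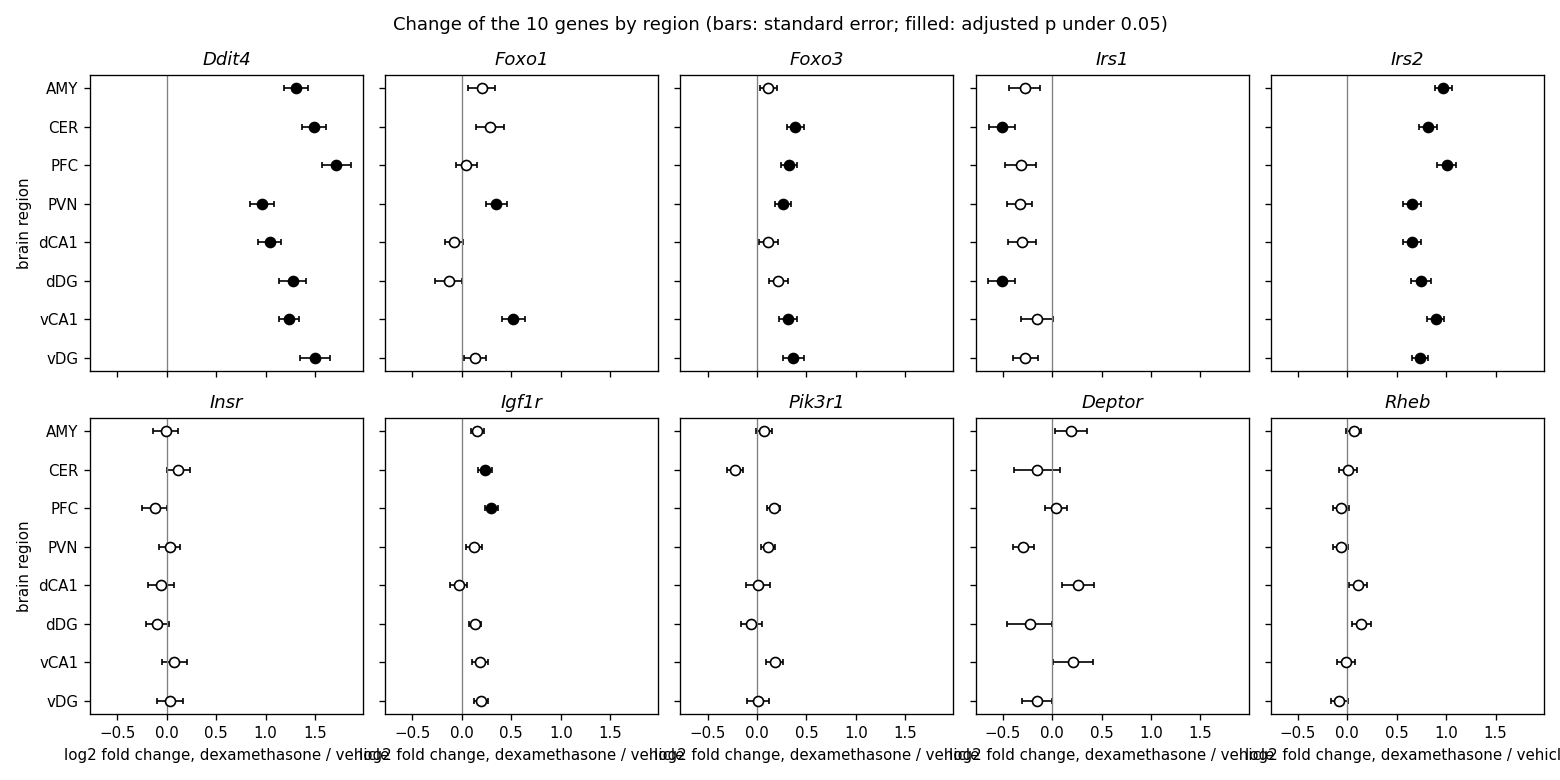
Log2 fold change of dexamethasone over vehicle (x axis) for each of the 10 genes in each region (y axis), with bars for 1 standard error and filled points for an adjusted p under 0.05. Ddit4 and Irs2 are filled in all 8 regions, Foxo3 in 5, Foxo1, Igf1r and Irs1 in 2 each, and Insr, Pik3r1, Deptor and Rheb in 0.

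Single markers of other cell types changed with dexamethasone as well. Of 7 microglial markers, P2ry12 and Cx3cr1 fell in all 8 regions (Cx3cr1 with log2 fold changes from -2.39 to -2.02), while C1qa (-0.30 to 0.01), C1qb (-0.15 to 0.14) and Csf1r (-0.19 to 0.10) passed in 0. The 7 summed to group medians of 241 to 509 CPM under vehicle and 147 to 289 CPM under dexamethasone. Of 6 endothelial markers, Flt1 and Slco1a4 fell in all 8 regions, Pecam1 and Ly6c1 in 0, and the sums had group medians of 317 to 449 CPM and 222 to 304 CPM. The 5 neuronal and 5 blood markers gave 0 changes in any region, and the 6 astrocyte and 6 oligodendrocyte markers a change in 1 region each (Aldh1l1 rose and Aqp4 fell in dCA1, and Mog fell in AMY). Cortical projection markers included a change in 6 regions, where Rorb fell in 5 (log2 -0.73 to -0.40), Fezf2 fell in vCA1 (-0.64) and Lamp5 rose in PFC (0.34). Of the dentate markers, Prox1 fell in CER (log2 -1.04 ± 0.14, adjusted p = 3.72e-07), AMY (-0.47) and PVN (-0.35) and Plk5 in dCA1 (-0.82). Npnt and Dsp, which also passed in vCA1, are the markers that met the filter there mainly through the dexamethasone libraries, so that their passing lends no support. Amygdala markers included a change in 2 regions and CA1 and choroid plexus markers in 1 each, carried by Rspo2 (PFC), Etv1 and Ttr (both vCA1) and Pou3f1 (AMY), which fell. Paraventricular and cerebellar markers gave 0 changes, but few of them passed the filter on low counts. Outside PVN 0 or 1 of the 5 paraventricular markers was tested in a region, and of the 7 cerebellar markers 1 to 3. The part of these markers in the members' changes was not tested, and the fit with the dentate level above cannot decide it.

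The level of the members without drug depended on the region. Among vehicle libraries, 9 of 10 members differed among the 8 regions by edgeR's F test with the animal as a block, as did 73.3% of the 10451 genes tested. Insr was the exception (adjusted p = 0.442), with means between 38.9 ± 10.7 CPM (SD, n = 15) in PFC and 46.7 ± 13.6 CPM (SD, n = 15) in vDG, and 0 of 28 pairs of regions differed. Over the 28 pairs of regions, 115 of 280 tests on members passed, against 31.4% of those on all genes, with between 1.89% and 52.5% of all genes passing for a single pair.

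Foxo1 and Deptor had the widest spread. Foxo1 fell into a high set of dCA1 (103 ± 16.5 CPM), dDG (93.7 ± 31.2 CPM) and vDG (89.0 ± 20.1 CPM) and a low set of AMY (54.7 ± 17.5 CPM), vCA1 (48.1 ± 6.25 CPM), PVN (45.5 ± 10.5 CPM), PFC (37.9 ± 7.35 CPM) and CER (34.4 ± 13.0 CPM), each with SD over 14 or 15 libraries. The step from vDG to AMY was the only one between neighbours in this order that passed (log2 0.72 ± 0.12, adjusted p = 1.21e-06), and dCA1 exceeded CER by 1.56 ± 0.13 (adjusted p = 2.95e-20). The same 3 regions held the highest means of the dentate gene Prox1. Deptor was highest in PVN (68.8 ± 12.7 CPM, n = 14), then CER (63.5 ± 43.8 CPM), PFC (47.6 ± 8.94 CPM), vDG (41.8 ± 11.8 CPM), vCA1 (34.4 ± 18.0 CPM), AMY (31.5 ± 9.24 CPM) and dDG (30.0 ± 16.4 CPM), and lowest in dCA1 (18.5 ± 6.39 CPM). No step between neighbours passed, and PVN exceeded dCA1 by 1.84 ± 0.21 on the log2 scale (adjusted p = 1.82e-13). Of 28 pairs of regions, 19 differed for Foxo1 and 17 for Deptor.

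Ddit4 under vehicle was highest in dCA1 (60.6 ± 12.8 CPM), followed by dDG (55.1 ± 16.0 CPM), vDG (52.8 ± 14.8 CPM), PVN (50.1 ± 14.0 CPM), vCA1 (49.7 ± 12.7 CPM), AMY (48.8 ± 13.2 CPM), CER (47.1 ± 16.7 CPM) and PFC. Only the last step, from CER to PFC, passed (log2 0.49 ± 0.11, adjusted p = 1.28e-04), and 12 of 28 pairs differed. Irs2 had its low point in PFC too (91.9 ± 17.6 CPM), below AMY (111 ± 23.4 CPM; log2 difference 0.29 ± 0.10, adjusted p = 0.0194), while vCA1, vDG, dCA1, CER, dDG and PVN lay between 118 and 136 CPM with no passing step. Irs1 was highest in dDG (40.8 ± 10.5 CPM) and low in AMY (26.4 ± 7.36 CPM) and vCA1 (26.5 ± 7.40 CPM), which did not differ beyond their spread, and no step between neighbours passed. From AMY to dDG the log2 difference was 0.67 ± 0.13 (adjusted p = 1.17e-05), and from dDG to vCA1 -0.70 ± 0.13 (adjusted p = 1.48e-05). For Irs2, 9 of 28 pairs differed, and for Irs1 13.

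Foxo3 was highest in dCA1 (102 ± 23.2 CPM) and lowest in CER (63.5 ± 12.4 CPM; log2 difference 0.66 ± 0.10, adjusted p = 1.49e-08), with 13 of 28 pairs and 0 neighbours apart. Pik3r1 and Rheb peaked in PFC, at 218 ± 24.4 and 221 ± 27.9 CPM. Pik3r1 was lowest in dCA1 (144 ± 34.2 CPM; log2 difference 0.61 ± 0.09, adjusted p = 2.20e-09), and of its neighbours only PVN and dDG were apart (0.20 ± 0.09, adjusted p = 0.05 to 2 decimals). Rheb was high in PFC and vCA1 (202 ± 31.0 CPM) and between 161 and 169 CPM in the other 6, the step from vCA1 to PVN being the 1 that passed (0.26 ± 0.08, adjusted p = 0.00358). Igf1r was the flattest member that differed, from 213 ± 37.0 CPM in PVN to 174 ± 12.6 CPM in AMY (log2 difference 0.30 ± 0.07, adjusted p = 5.33e-04). For Pik3r1 14 pairs differed, for Rheb 12 and for Igf1r 6. PFC, the lowest region for Ddit4 and Irs2 and the highest for Pik3r1 and Rheb, also had the highest mean RIN. The part of RIN in these levels was not tested.

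**Figure D4:**
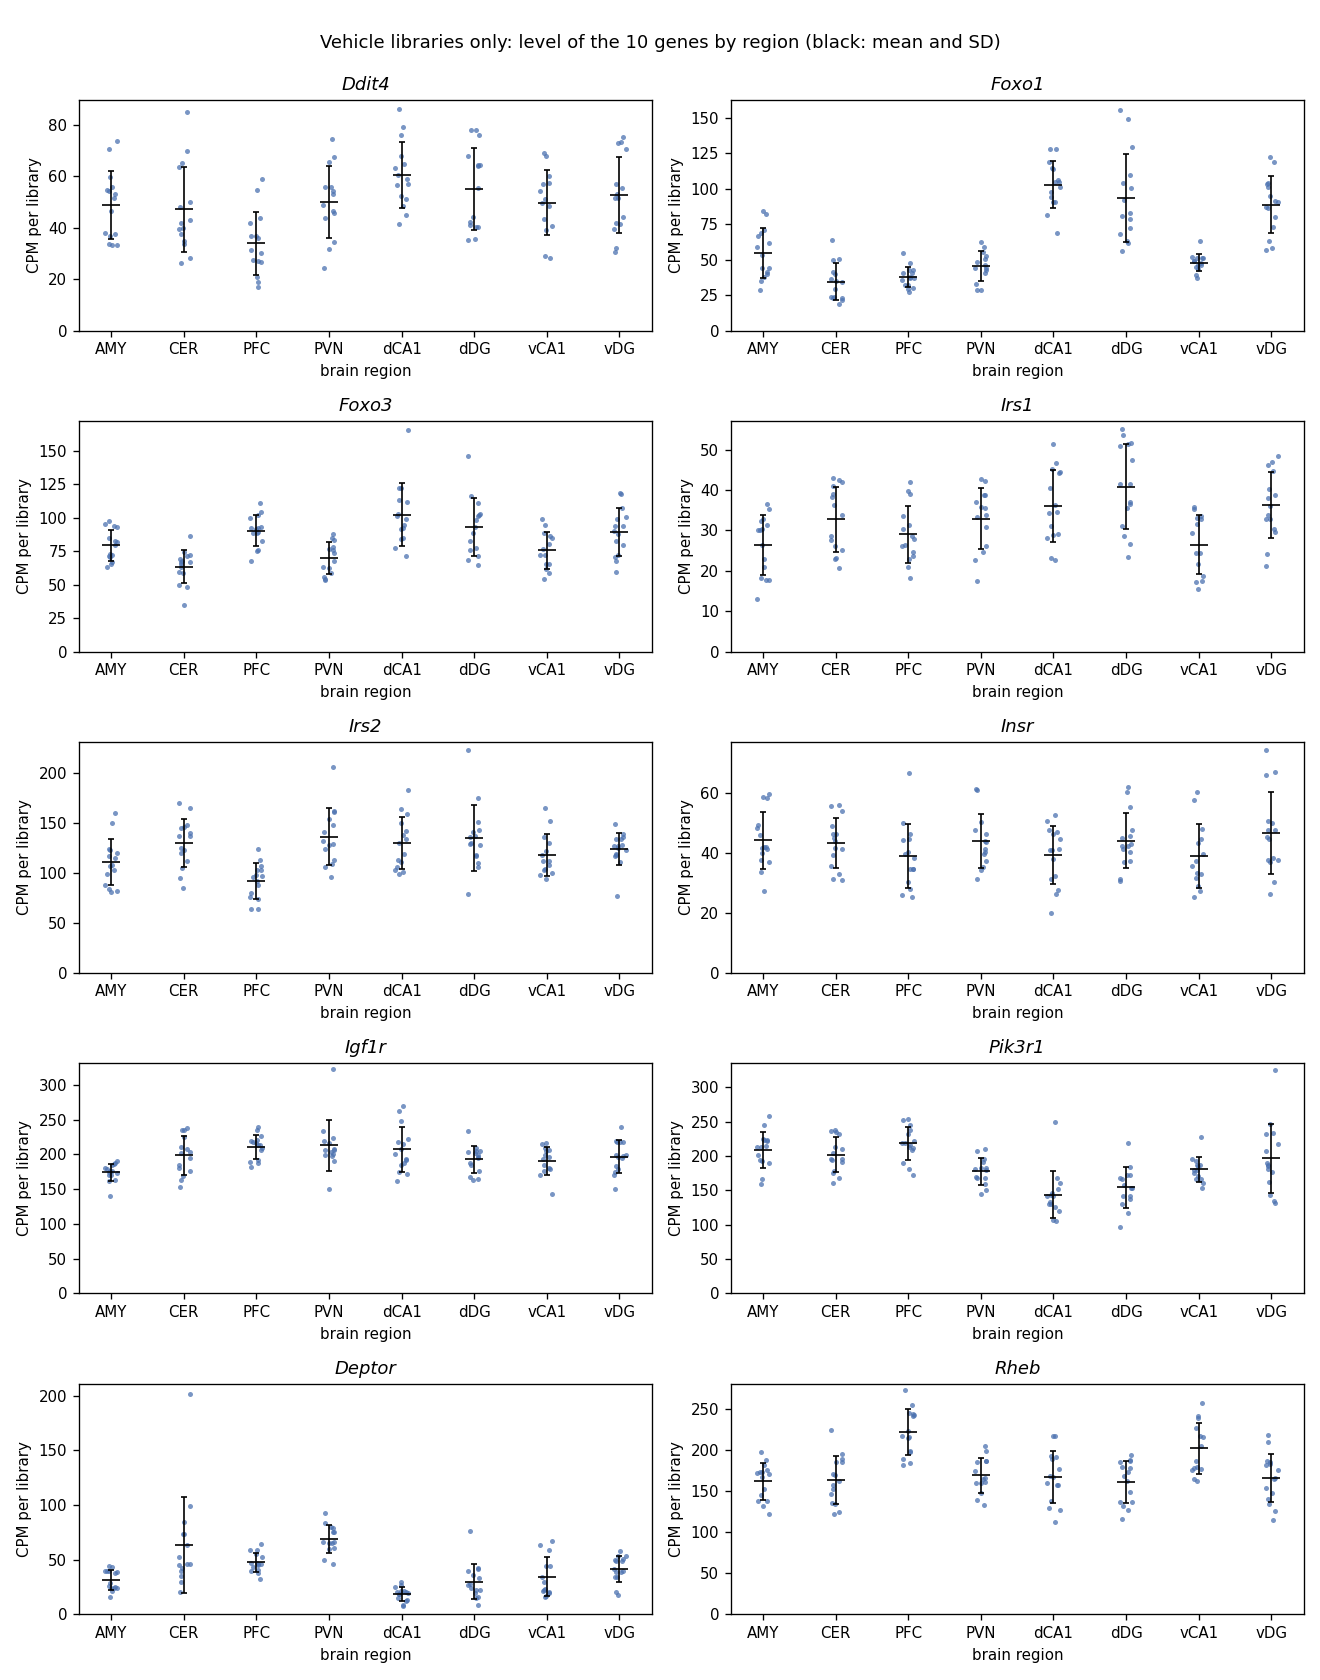
Level of each of the 10 genes in CPM (y axis, each panel on its own scale from 0) in the vehicle libraries of each region (x axis), with the mean and SD in black. Foxo1 splits into a high set (dCA1, dDG, vDG) and a low set, Deptor has a CER library at 201 CPM, and the Insr means lie between 38.9 and 46.7 CPM.

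Over the 16 group means of log2 CPM, the genes whose pattern was most like that of Ddit4 were Fkbp5 (Pearson's r = 0.98), Tob2 (0.97), Trp53inp1 (0.97) and Errfi1 (0.96), out of 7914 genes. For Irs2 they were Gpt2 (0.98), Slc2a1 (0.96), Rhob (0.95) and Rin2 (0.95). Fkbp5 encodes a co-chaperone of the glucocorticoid receptor and Slc2a1 the glucose transporter GLUT1. For Deptor, which did not pass in any region, they were Ankrd24 (0.94), Cit (0.92), Srpk2 (0.92) and Tuba1b (0.92). These are descriptions over means that share animals and libraries. For Ddit4 and Irs2, which rose in every region, they in part restate the difference between the arms.

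The rest of the pathway was read from 6 lists that hold 107 genes beside the members. Of 11 ligands and binding proteins 7 were tested in at least 1 region, and 1 rose somewhere (Igfbp7, an IGF-binding protein, in AMY, log2 0.46) and 1 fell somewhere (Igfbp5 in dCA1, by 0.44). Of 13 other receptors and adaptors 9 were tested, 3 rose and 1 fell. Gab1, a docking protein that recruits PI3K, fell in 6 of 8 regions, by 0.60 to 0.86 on the log2 scale. Its mean in CER was 61.1 ± 11.9 CPM (SD, n = 15) under vehicle and 33.0 ± 7.22 CPM (SD, n = 15) under dexamethasone (edgeR adjusted p = 2.08e-07). Sh2b2, an adaptor of the insulin receptor, passed the filter on low counts only in the 4 regions with its highest dexamethasone means (19.6 to 37.0 CPM), so that its passing in each of these 4 lends no support. Over all 8 regions its vehicle means were 3.57 to 14.6 CPM and its dexamethasone means 12.1 to 37.0 CPM. Its CER mean was 8.23 ± 4.43 CPM (SD, n = 15) under vehicle and 37.0 ± 9.15 CPM (SD, n = 15) under dexamethasone (edgeR adjusted p = 2.50e-11). Grb14 rose in 2 regions and Ptpn1, a phosphatase of the insulin receptor, in 1.

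Of 19 PI3K and Akt genes 18 were tested, 1 rose and 3 fell. The riser was Trib1, a pseudokinase, in 8 of 8 regions by 0.88 to 1.60 on the log2 scale, the most in PVN, where means were 20.4 ± 7.11 CPM (SD, n = 14) under vehicle and 61.0 ± 11.3 CPM (SD, n = 15) under dexamethasone (edgeR adjusted p = 2.72e-12). Its relative Trib2 fell in 3 regions by 0.45 to 0.70 and its response differed among regions (adjusted p = 0.0365), and Akt2 and Pik3r3 fell in 1 each. Of 17 genes of the mTOR complexes and their outputs 13 were tested and 0 passed edgeR's threshold in any region, with 8 of 96 gene-by-region tests under an unadjusted p of 0.05 and 1 past the threshold in DESeq2. The list's median log2 fold change over regions was -0.02, against -0.01 for all genes.

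Of 26 genes upstream of mTOR 23 were tested, 2 rose and 1 fell. Sesn1, a stress-induced inhibitor of mTOR complex 1, rose in 8 of 8 regions by 0.33 to 0.82. In CER its mean was 40.4 ± 7.95 CPM (SD, n = 15) under vehicle and 72.4 ± 11.6 CPM (SD, n = 15) under dexamethasone (edgeR adjusted p = 2.59e-08). Its response differed among regions (adjusted p = 0.0145). Fnip2 rose in CER. Ddit4l, a paralog of Ddit4, was tested in 3 regions, with log2 fold changes of -0.64 in vCA1 (adjusted p = 0.0397), -0.86 in vDG (0.0642) and -0.44 in PFC (0.203). In vCA1 its medians were 18.6 CPM under vehicle and 10.8 CPM under dexamethasone. It met the filter there mainly through the vehicle libraries, so that its passing lends no support. In the 5 regions where it did not pass the filter its dexamethasone means were lower as well, such as 20.3 ± 10.5 CPM (SD, n = 15) under vehicle and 5.49 ± 2.44 CPM (SD, n = 13) under dexamethasone in dCA1. Of 21 further FoxO factors and known targets 18 were tested, 7 rose somewhere and 3 fell somewhere. Of the 7, Gadd45a was tested only in CER (mean 11.9 CPM under vehicle and 40.6 CPM under dexamethasone) and Pdk4 only in vCA1 and vDG (10.5 and 21.5 CPM in vDG, where it passed), so that their passing lends no support either. Txnip, which restrains glucose uptake, rose in 8 of 8 regions by 0.88 to 1.24, as did Klf15, a regulator of amino acid breakdown, by 0.68 to 1.33. Cited2 and Bcl6 rose in 4 regions each, and the response of Cited2 differed among regions (adjusted p = 0.0408). The 3 that fell, named after their values were seen, were Fbxo32, a ubiquitin ligase of muscle wasting, in CER and dCA1 (by 0.55 and 0.53 on the log2 scale), Foxo6 in vCA1 (by 0.62) and Ccng2 in dCA1 (by 0.34). Over the 6 lists, 15.9% of the 88 genes tested rose in 1 region or more and 10.2% fell in 1 or more, against 7.98% and 6.01% of all 10110 genes tested in any region. Of all 640 gene-by-region tests on the lists, 10.8% passed, against 5.17% of those on all genes. The list shares include Sh2b2, Gadd45a, Pdk4 and Ddit4l, whose passing lends no support. The lists were drawn up with earlier results of these data known, and these shares are counts only.

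**Figure D5:**
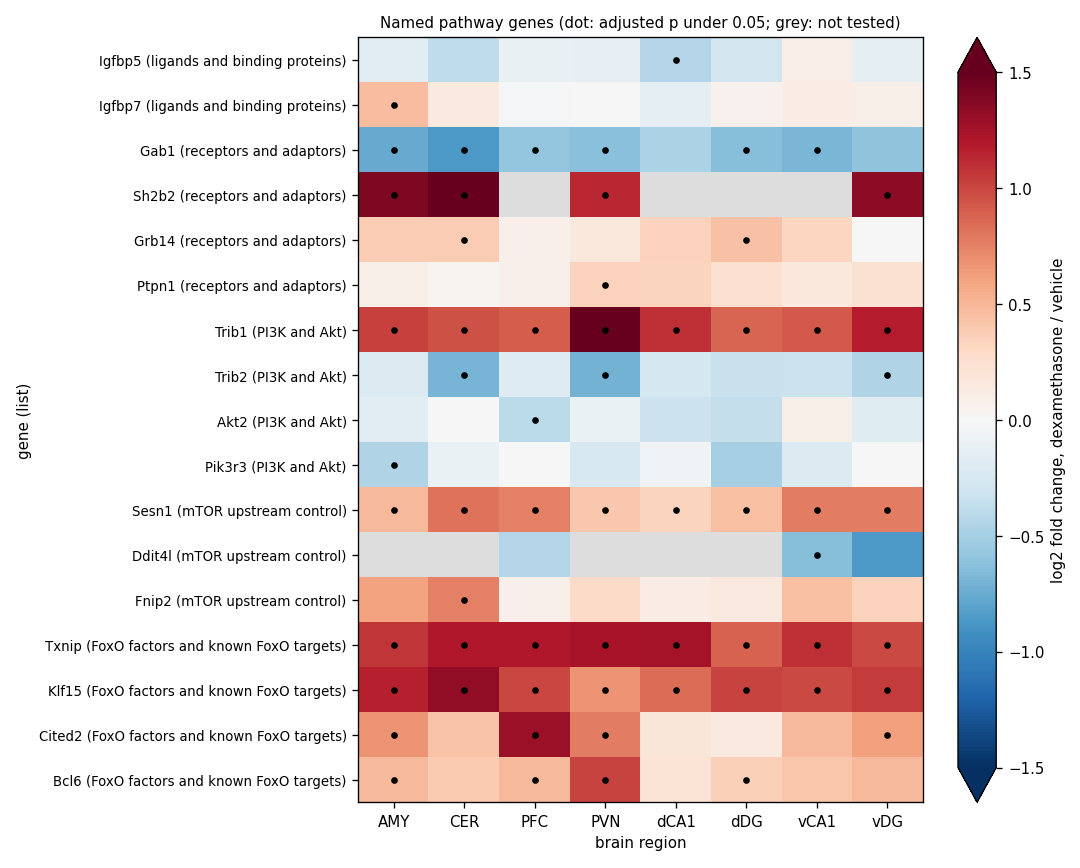
Log2 fold change (colour, red for higher and blue for lower after dexamethasone, limited at 1.5) of the pathway genes named in the text, by region (x axis), with the list of each gene in brackets; a dot marks an adjusted p under 0.05 and grey an untested gene. Trib1, Sesn1, Txnip and Klf15 carry dots in 8 regions and Gab1 in 6.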

How the data were processed

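Reads came from single-end 3' end libraries with molecular identifiers (QuantSeq forward), per the labels' protocols. The submitters' processing notes name FastQC 0.11.4, cutadapt, UMI-tools 0.5.4, STAR 2.6.0a, featureCounts 1.6.4, DESeq2 1.30.1, R 4.0.5 and the build mm10. Their settings, the use of strand included, are not given in the sources used here. The authors deposited raw counts per gene, which were used as they are, and variance-stabilised log2 values of 228 libraries, of which only the list of libraries was used. A table of gene names gave symbols for 27645 of the 27998 gene IDs.

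In each region, genes passing filterByExpr were scaled by trimmed mean of M values (TMM) and tested with edgeR 4.0.16 (R 4.3.3), without covariates. Benjamini-Hochberg adjustment covered all genes tested in a fit. CPM use TMM factors over all 235 libraries, and log2 CPM a prior count of 2. Differences among regions were tested in joint fits with the animal as a block. Animals are the replicates. Replicate numbers pair the arms through the labels, since same-numbered libraries of a region shared the plate in 115 of 115 pairs and the date of punching in 109. Between 4 of 14 pairs (vCA1) and 12 of 15 (dDG) had correlated deviations above 0.1, and the blocked fit is an alternative. The counting error of a level is set by the library totals. The steps were tested on simulated data. The 10 genes, the lists and the 4 genes named per list (those changed in most regions) were chosen with earlier results of these data known. Alternatives were another scaling (RLE), 2 filters, DESeq2 1.42.0, a replicate block, plate and date, RIN, dentate level and fewer libraries, the Gabra6 limit of 10 CPM being chosen after the data were seen. Tables and plots were made in Python 3.11.15 with numpy 2.4.6, matplotlib 3.10.9 and pandas 2.3.3.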

Additional observations from a re-analysis of the deposited data

Results flagged for a closer look

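The response of Ddit4 to dexamethasone differed among the 8 regions by a test of the difference itself (edgeR's quasi-likelihood F test of 7 region-by-treatment terms, adjusted p = 0.0257). The log2 fold change was 0.96 ± 0.12 (SE) in PVN and 1.72 ± 0.15 in PFC. The direction was the same in all 8 regions. Over 6 alternatives the adjusted p ran from 0.00307, with plate as a factor beside the animal, to 0.153, without the animal block.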

How the results depend on the processing

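Ddit4 was past the threshold in 68 of 68 alternative values over the 8 regions and Irs2 in 69 of 69. Of 796 values of single members, 766 kept direction and side of the threshold, 16 lost the threshold, 5 gained it and 9 changed sign, all 9 without passing in either fit. With date and plate as factors these were Insr in AMY (log2 0.0068), Rheb in CER (-0.020) and Rheb in vCA1 (0.011). With the replicate block it was Igf1r in dCA1 (0.013). With the libraries of the variance-stabilised tables they were Igf1r in dCA1 (0.010), Rheb in vCA1 (0.021) and Pik3r1 in vDG (-0.043), and with the dentate covariate Pik3r1 in dCA1 (-0.16) and Rheb in vCA1 (0.049). The number of changed members went from 5 to 2 in CER with at least 10 counts in every library, where only 6 members were tested, and from 4 to 2 in vCA1 with the dentate level as a covariate (Foxo1, log2 0.52 to 0.30, and Foxo3, which stayed at 0.31 with an adjusted p of 0.162). The number of members whose response differed among regions went from 1 to 0 without the animal block, with the libraries of the variance-stabilised tables and with Gabra6 under 10 CPM. The cause was not tested. Foxo3 in PVN lost the threshold in 6 of 7 alternatives (adjusted p from 0.0506 to 0.0982). The filter at 10 counts tested fewer genes and left 188 to 345 changed genes in a region, against 316 to 565. With the dentate covariate 279 genes changed in vCA1, against 497 without it, while the counts were higher in dCA1 (562 against 408), dDG (431 against 316) and vDG (426 against 366). RLE moved the median of the listed genes by at most 0.00649.

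With the replicate block, 543 genes changed in dDG in place of 316. Pik3r1 in CER (adjusted p = 0.0441) and Deptor in PVN (0.0322) then passed, and Foxo3 in PVN (0.0605) and vCA1 (0.0707) did not. The block changed no other call of a member in a region. Libraries absent from the variance-stabilised tables belong to CER, PFC, dCA1, vCA1 and vDG, so that alternative gave no value in AMY, PVN and dDG. Depth limits Irs1 and Deptor most, whose levels fell to 7.93 and 7.54 CPM in single libraries.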
